A study of Mus musculus with 8 samples.

Results

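The genes described here encode enzymes that reduce quinones and carbonyls, oxidise aldehydes and foreign compounds, or hydrolyse epoxides and esters, together with pumps that carry conjugates out of the cell. They are Nqo1, Cbr1, Cbr3, Aldh3a1, Aox1, Fmo4, Ephx1, Esd, Abcc1 and Abcc4, 10 of the 21627 protein-coding genes that could be placed. The data are peaks of chromatin immunoprecipitation with sequencing (ChIP-seq) for the transcription factor Nrf2 in satellite cells (muscle stem cells) taken fresh from the hindlimb of C57BL/6J mice. A site of a gene is a peak whose summit lies in the gene span or within 50 kb of it. The genes were chosen by the presence and strength of Keap1-null peaks near them, so those values are given as a description, without a test. By this rule 9 of the 10 genes had a Keap1-null site, at 10 separate peaks of the 469 in that list, and Cbr1 had none.

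Of the 8 libraries, 4 are from Keap1-null and 4 from Nrf2-null mice, and in each genotype 2 are Nrf2 ChIP and 2 are input chromatin. The labels number them bench 1 and bench 2, and each group has 1 library of each bench. All groups share the strain and the tissue. The labels give neither the alleles, the cell type in which a gene was removed, the age nor the number of mice, and they do not say whether the libraries of a group came from separate animals. Each genotype has 1 deposited list that joins its 2 ChIP libraries, with 469 Keap1-null and 151 Nrf2-null peaks; read totals are unknown, and peaks cannot check the labelled cell type, which rests on expressed markers.

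Nrf2 binds with a small Maf partner to antioxidant response elements, short DNA stretches with the core letters TGACNNNGC, and it is kept scarce by Keap1, which passes it on for degradation. Quinones, aldehydes and epoxides are reactive products of metabolism and of foreign compounds. Phase I enzymes oxidise, reduce or hydrolyse them, phase II enzymes detoxify or conjugate them, and efflux pumps of the Abcc family export the conjugates. Nqo1 is the textbook Nrf2 target of this group, and its best studied response element lies upstream of its start.

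The peaks of Nqo1 and Aox1 reached into a promoter window of RefSeq (build GRCm38.p6, the assembly that mm10 names), which runs from 250 bases before to 50 after a transcription start. Stretches of these windows are shown because only in such windows could the peaks of these genes be read as sequence. No sequence of the other peaks of these genes was used here. The 250 bases before the Nqo1 start (chr8:107403206-107403455, minus strand) had their upstream 140 bases inside the Keap1-null peak, written in capitals. At Aox1 (chr1:58029719-58029808, plus strand) the 90 bases before the gene span all lie in the peak. They are a part of the 211 bases of the Aox1 window inside the peak. The capitals mark TGACTCA, the core bound by AP-1 factors, which also begins many response elements.
Nqo1: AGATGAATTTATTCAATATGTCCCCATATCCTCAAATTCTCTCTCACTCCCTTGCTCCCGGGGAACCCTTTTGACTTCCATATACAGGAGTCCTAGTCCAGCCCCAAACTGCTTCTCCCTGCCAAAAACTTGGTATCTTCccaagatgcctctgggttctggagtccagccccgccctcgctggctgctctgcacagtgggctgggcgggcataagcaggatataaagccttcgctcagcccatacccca
Aox1: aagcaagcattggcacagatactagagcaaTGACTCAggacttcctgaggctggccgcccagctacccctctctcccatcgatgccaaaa

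Neither window held the letters TGACNNNGC on either strand. The Nqo1 summit lay outside its window, 411 bp from the start. The Aox1 summit lay inside its window, 28 bp from the centre of the TGACTCA match. Over all 32851 promoter windows, 12.4% held TGACNNNGC and 5.20% held TGACTCA. Of the 21 windows with a Keap1-null summit, 14 held TGACNNNGC (66.7%) and 4 held TGACTCA (19%). A match describes letters and is not a shown binding site, and a window without one says nothing of the rest of the peak.

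Promoter windows were found for 8 of the 10 genes, all but Aldh3a1 and Abcc1. TGACNNNGC occurred in 1 of the 8, Abcc4, once in each of its 2 windows (chr14:118706224-118706256 and chr14:118676934-118676966, minus strand). Those matches are shown in capitals because no peak lay on them: the Abcc4 site was 44.5 kb from the first and 73.8 kb from the second. The first is a match on the opposite strand, so it is written as the reverse complement. The windows of Cbr1, Cbr3, Ephx1, Esd and Fmo4 did not hold those letters and no peak overlapped them.
Abcc4, first window: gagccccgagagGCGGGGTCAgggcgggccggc
Abcc4, second window: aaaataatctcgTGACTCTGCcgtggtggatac

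Keap1-null sites stood at 9 of the 10 genes, while 3.70% of all protein-coding genes had a Keap1-null summit in the same window; since that list chose the genes, nothing is read from the contrast. The sites were spread over 3 kinds of position. At a gene end, meaning a summit within 1000 bp of either end, were 4 sites (Nqo1, Aox1, Cbr3 and Fmo4). Inside the gene were 2 (Ephx1 and Esd), beside 41.6% of all Keap1-null peaks inside a protein-coding gene. Distal were 4 (Aldh3a1, Abcc1 with a pair, and Abcc4). The distal share over all Keap1-null peaks was not computed, so nothing is read from that count. Among all Keap1-null peaks 9.17% had the summit within 1000 bp of a protein-coding gene end. The gene table has no exons, so a site inside a gene cannot be placed in an exon, an intron or an untranslated region.

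**Figure D1:**
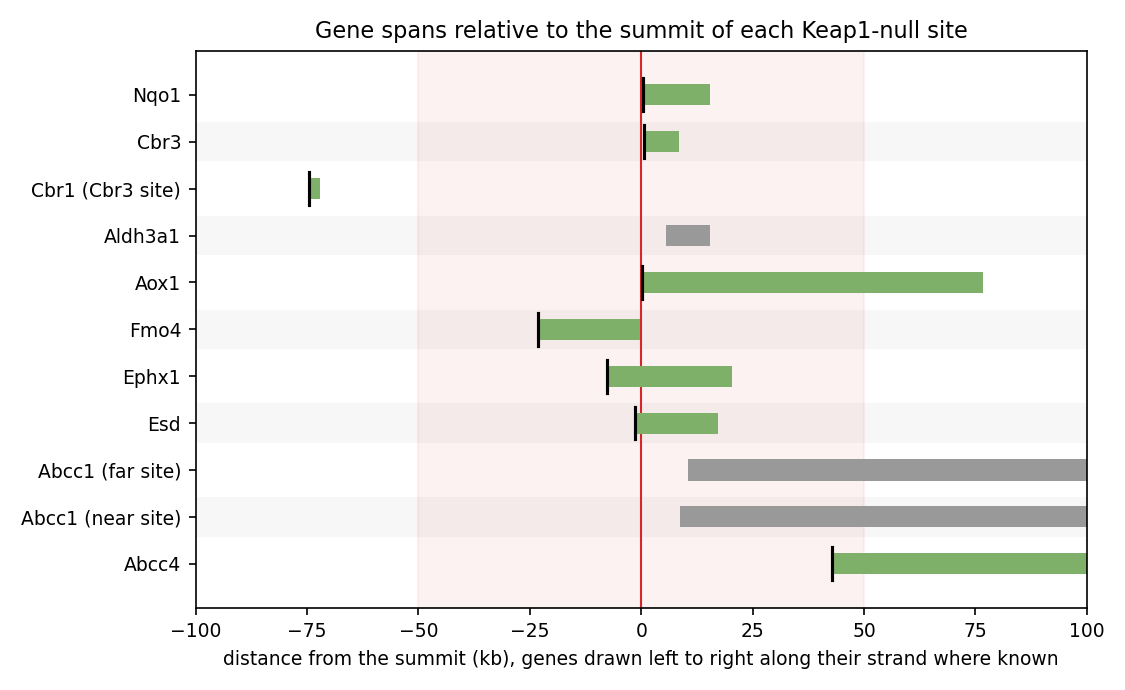
Span of each gene (bar) relative to the summit of its Keap1-null site at 0, in kb, 1 row per site; green genes are drawn along their strand with the start-site end as a black line, grey genes have no strand in the tables and are drawn by chromosome order, and bars are clipped at 100 kb. The shaded band is the 50 kb limit: Nqo1, Cbr3 and Aox1 begin next to their summit, Fmo4 ends next to it, and Cbr1 lies 72.2 kb from the Cbr3 site, outside the band.

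Strength is given as the deposited −log10 p of enrichment in the first and second library of the list, whose columns do not name the bench, and as the irreproducible discovery rate (IDR), which is low where a peak ranks consistently high in both. These values are the authors' own. Peaks are ordered by IDR and then by the smaller −log10 p; the list ends at an IDR of 0.0499.

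The quinone reductase Nqo1, which reduces quinones without a semiquinone step, had the second strongest site of the group (chromosome 8, 107403316 to 107403868). Its −log10 p was 67.5 in the first library and 38.3 in the second, at an IDR of 2.63e-05, place 15 of 469. The first library was well above the second, yet both ranked the peak high, at place 13 and 23 by their own values. The summit lay 411 bp upstream of the start. Nob1, a ribosome maturation factor, was the next protein-coding gene, 8.87 kb away. The next Keap1-null peak was 2130 kb away. Such spacing was not particular to Nqo1: at the other sites the next peak was at least 553 kb away, save for the Abcc1 pair.

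The carbonyl reductases Cbr1 and Cbr3, NADPH-dependent enzymes that reduce ketones and quinones, are close relatives. They lie 72.9 kb apart on chromosome 16 with no protein-coding gene wholly between them. Only Cbr3 had a site (93682293 to 93682806), with its summit 704 bp upstream of the start. Its −log10 p was 36.6 and 14.9 in the first and second library, at an IDR of 0.00172. The first library placed it at 51 and the second at 191. The same summit was 72.2 kb from Cbr1, beyond the 50 kb limit, and was the Keap1-null summit nearest to Cbr1. This pair marks the limit: Abcc4 at 42.9 kb was the gene furthest inside it, and Cbr1 the one outside. The protein-coding genes Gm52236 and Dop1b, 16.3 and 29.4 kb from the summit, were nearer to it than Cbr1. Nearness does not show which of these genes, if any, the site acts on.

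Aldh3a1, an aldehyde dehydrogenase best known from the cornea, had a distal site 5.50 kb from its lower-coordinate end (chromosome 11, 61202824 to 61203274). The −log10 p was 30.1 in the first library and 14 in the second, at an IDR of 0.00242. The first library was again the higher, with place 88 against 209. The summit fell inside the long noncoding RNA gene Gm42080 and 2.67 kb from the pseudogene Rps13-ps5, both closer than Aldh3a1. Aldh3a2, which encodes the fatty aldehyde dehydrogenase, had the same peak 20.4 kb from its span. Usp22 and Tnfrsf13b, 27.9 and 49.8 kb from the summit, also had it within 50 kb. By that rule the site is shared by neighbouring aldehyde dehydrogenase genes and by genes outside this family.

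The oxidases had sites at opposite ends of their genes. Aox1, the molybdenum-containing aldehyde oxidase, had its summit 85 bp before the gene span, with the TGACTCA letters shown above (chromosome 1, 58029458 to 58029929). The start in its promoter window lies inside the gene span, so the summit was 245 bp upstream of that start. Its −log10 p was 30.4 and 11.4 in the first and second library, at an IDR of 0.00450. By the difference of ranks this was the most uneven of the group, at place 86 in the first library and 283 in the second. The next gene, Sgo2a, a protector of chromosome cohesion, was 3.45 kb away.

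Fmo4, a flavin-containing monooxygenase, had its summit 268 bp past the far end of the gene, 19.6 kb downstream of the start in its promoter window (chromosome 1, 162792719 to 162793118). Its −log10 p was 20.7 and 16.5, at an IDR of 0.00285. The libraries were nearly even, at place 182 in the first and 167 in the second. Fmo1, another monooxygenase of the family, was 36.6 kb from the same summit, and no protein-coding gene besides these lay within 50 kb of it. Counted by the start-site end alone, Fmo4 is not a gene-end site and 3 sites remain at a gene end.

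The hydrolases had their sites inside the gene. Esd, whose esterase D hydrolyses S-formylglutathione in the removal of formaldehyde, had the strongest site (chromosome 14, 74733204 to 74733844). Its −log10 p was 83.4 and 84.9 in the first and second library, at an IDR of 1e-05, the lowest listed, which 8 peaks share. It was the only site of the 10 that was higher in the second library. The summit was 1386 bp inside the gene span and 1240 bp downstream of the start, and the peak was the widest of the group at 641 bp. Ephx1, the microsomal epoxide hydrolase, had its summit 7675 bp downstream of the start (chromosome 1, 181009683 to 181010087). There −log10 p was 38.3 and 17.6, at an IDR of 0.00102, with place 47 in the first library and 155 in the second.

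Both efflux pumps had distal sites only. Abcc1, also known as multidrug resistance protein MRP1, exports glutathione conjugates and was the one gene with 2 sites, both beyond its lower-coordinate end. The site 10.5 kb from the gene (chromosome 16, 14350687 to 14351143) had −log10 p of 25.4 and 22.9 at an IDR of 0.000930. The site 8.67 kb from the gene (14352603 to 14352988) had 19.9 and 15.8 at an IDR of 0.00324. The farther one was higher in both libraries. Their summits were 1837 bp apart, with 1459 bp between the peaks. Of the Keap1-null peaks without an overlapping Nrf2-null peak, 3.58% had another Keap1-null summit within 2 kb.

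Abcc4, also known as MRP4, which exports cyclic nucleotides and organic anions, had the last place of the group in the IDR order (chromosome 14, 118750511 to 118750980). The −log10 p was 19.3 and 12.2 in the first and second library, at an IDR of 0.00523, place 199. The summit was 42.9 kb beyond the start-site end of the gene span. Cldn10, a claudin of tight junctions, was nearer at 37.1 kb, and the long noncoding RNA gene Gm46484 held the summit. This was the only site of the 10 for which another protein-coding gene was nearer.

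**Figure D2:**
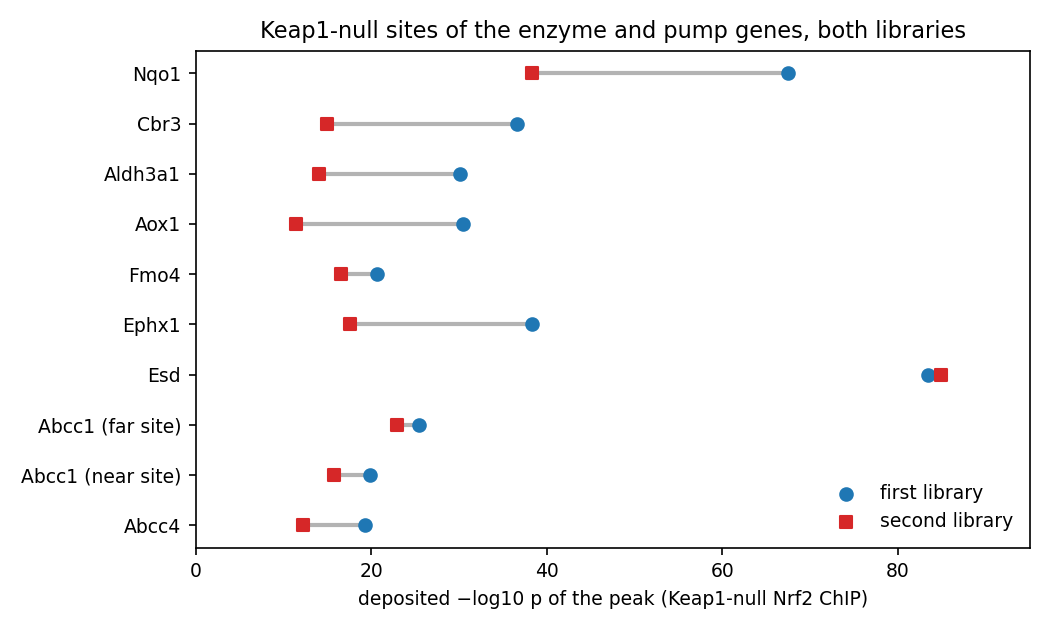
Deposited −log10 p (horizontal axis) of the 10 Keap1-null sites in the first (circle) and second (square) library of the list, 1 row per site, joined by a grey line. Esd is highest in both at 83.4 and 84.9, Nqo1 follows, and every site but Esd has the circle to the right.

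Across the 10 sites the first library ranged from 19.3 to 83.4 with a median of 30.2, and the second from 11.4 to 84.9 with a median of 16.2. The corresponding medians over all 469 Keap1-null peaks were 17.8 and 13. Over the 363 Keap1-null peaks without an overlapping Nrf2-null peak they were 16.9 and 11.7. The smaller −log10 p was above the list's median of 12.1 at 9 of the 10 sites, with Aox1 the one below. Aox1, at 11.4, was above the median of 11 over those 363 peaks. The first library was higher at 9 of 10 sites; so were 81.5% of the 363 Keap1-null peaks without an overlapping Nrf2-null peak, a share near that of these sites. All 10 had an IDR of at most 0.01, as did 261 of the 469. These are the values that drew attention to the genes, and no test was run on them.

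**Figure D3:**
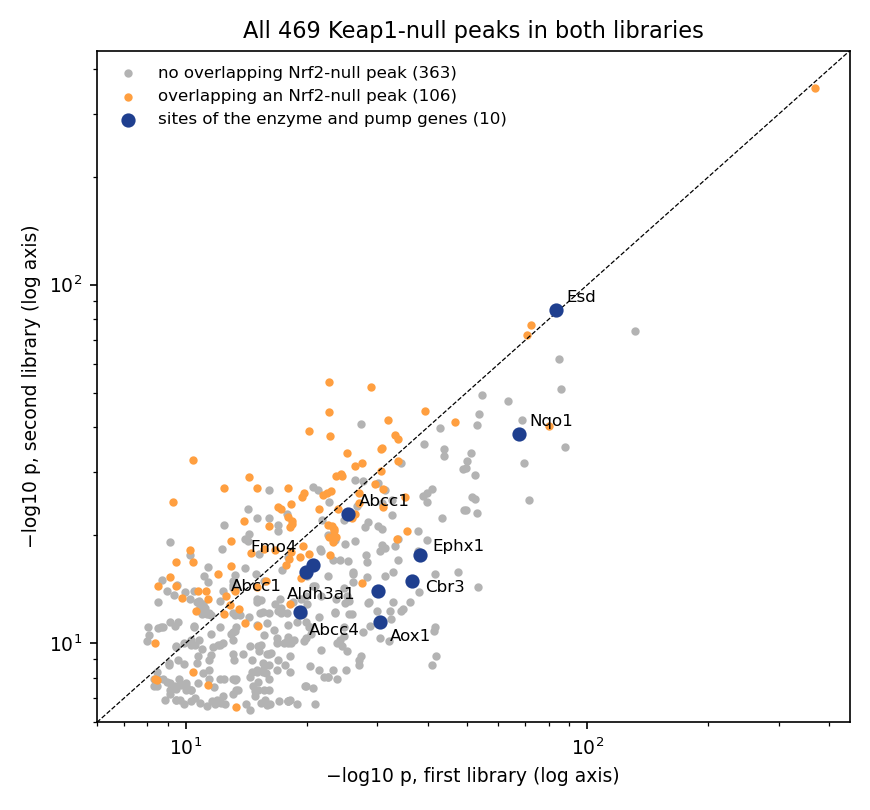
−log10 p in the first (horizontal) and second (vertical) library for the 469 Keap1-null peaks, both axes logarithmic, with the dashed line marking equal values; 106 peaks overlap an Nrf2-null peak, 363 do not, and the 10 labelled points are the sites described. Esd lies on the line, and Nqo1, Cbr3, Ephx1, Aldh3a1 and Aox1 lie well below it, on the side of the first library.

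Peak width comes from the same peaks that chose the genes and is given as a description. The sites were 386 to 641 bp wide with a median of 464, against a median of 409 over all Keap1-null peaks and 428 over those without an overlapping Nrf2-null peak. The widest was that of Esd and the narrowest the Abcc1 site at 8.67 kb. With 10 sites from the same pair of libraries, these widths describe the sites and were not tested.

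In the Nrf2-null list none of the 10 genes had a site, and 0 of the 10 Keap1-null sites overlapped an Nrf2-null peak. The nearest Nrf2-null summit was between 1.17 Mb (Abcc1) and 106 Mb (Ephx1) from a gene. A gene without an Nrf2-null site is the usual case: 0.694% of protein-coding genes had an Nrf2-null summit in the same window, so the count of 0 is near the background and is not a result about these genes. Over all Keap1-null peaks, 77.4% lacked an overlapping Nrf2-null peak. The lowest smaller −log10 p among the 10 sites was 11.4. Below that value were 39 of the 151 Nrf2-null peaks and 219 of the 469 Keap1-null peaks. Why no Nrf2-null peak was called at these genes was not tested. Where the lists overlapped, 23 of 106 Keap1-null peaks had the higher smaller −log10 p of the pair. By its label the Nrf2-null genotype lacks Nrf2, so values of that list are not read as strengths of Nrf2 binding. What its peaks stand for, including those that overlap Keap1-null peaks, was not tested. Since −log10 p rises with depth, which is unknown, a difference in signal and one in depth cannot be told apart at any single site. The lists give no value where no peak was called.

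The other genes of the pathway came from a list of 84 genes in 6 classes that includes the 10 and was written with earlier results of these data known. Of its 74 other genes, 6 had a Keap1-null site within 50 kb (8.11%, beside 3.70% of all protein-coding genes), and 2 had one within 10 kb (1.48% of all). Of these 6, Aldh3a2 and Fmo1 shared their peak with Aldh3a1 and Fmo4. No gene of the 84 had an Nrf2-null site. By class, sites stood at 4 of 21 quinone and carbonyl reductases, 4 of 16 aldehyde and alcohol dehydrogenases, 3 of 19 oxidases and monooxygenases, 2 of 7 hydrolases, 2 of 10 efflux pumps and 0 of 11 conjugating enzymes. Without the described genes, which were chosen for their peaks, the counts were 2 of 18, 3 of 15, 1 of 17, 0 of 5, 0 of 8 and 0 of 11 in the same order, so those of the hydrolases and pumps rest wholly on chosen genes.

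**Figure D4:**
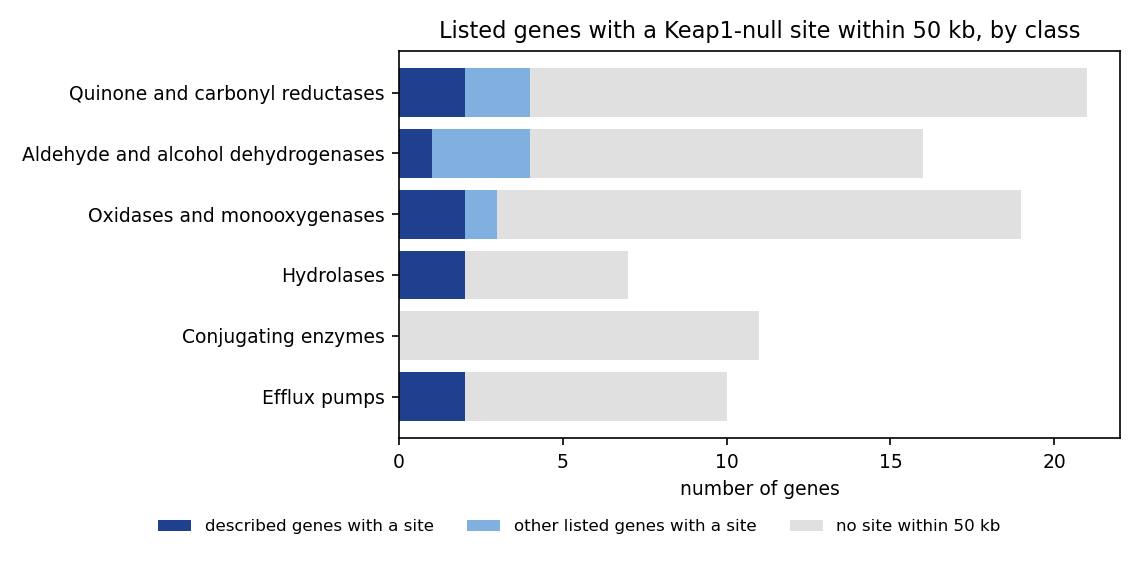
Number of listed genes (horizontal axis) in each of 6 classes with a Keap1-null site within 50 kb, split into the described genes (dark) and other listed genes (light), and without one (grey). Conjugating enzymes have 0 of 11, and the other classes have 2 to 4 genes with a site.

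Among those other genes, an alcohol and an aldehyde dehydrogenase gene held their site inside the gene span. Adh7, an alcohol dehydrogenase that also oxidises retinol, held a peak 12.6 kb from its nearer end (chromosome 3, 138210304 to 138210993), with −log10 p of 33.7 and 19.5 and an IDR of 0.000749. Aldh2, the mitochondrial aldehyde dehydrogenase that clears acetaldehyde, held a peak 9.52 kb from its nearer end (chromosome 5, 121584059 to 121584457). Its values were uneven, 23.7 in the first library and 7.93 in the second, at an IDR of 0.0192.

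Akr1c14 and Akr1a1, of the aldo-keto reductases listed, each had a pair of sites outside the gene. Akr1c14, a hydroxysteroid dehydrogenase, had peaks 15.3 and 16.3 kb from its span. Their −log10 p was 20.9 and 14.4 for the nearer peak, and 19.6 and 12 for the other. Akr1a1, an aldehyde reductase, had peaks 31.5 and 33.8 kb away, both closer to Prdx1, which encodes a peroxiredoxin. The one at 33.8 kb had its summit in the Prdx1 promoter window, 7 bp from the centre of a TGACNNNGC match on the opposite strand (chr4:116685454-116685486, plus strand), shown here with the match in capitals as an example of a core under a summit.
Prdx1: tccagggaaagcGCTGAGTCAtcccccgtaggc

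Other listed genes fell outside the limit but within 100 kb of a Keap1-null summit. Nnmt, a methyltransferase for nicotinamide, was 55.2 kb from its nearest one, which lay inside the gene Zbtb16. Adh1 was 67.0 kb from the Adh7 peak, and Fmo2 and Aox3 were 81.4 and 83.4 kb from the Fmo4 and Aox1 sites. Dcxr, Akr1c18 and Cbr2 were 94.3, 98.9 and 99.3 kb from their nearest summits. The median distance from a gene span to the nearest Keap1-null summit was 1970 kb for the 74 other listed genes and 1690 kb for all protein-coding genes.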

How the data were processed

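Per the submitters' processing notes, the tools were Trim Galore 0.6.10 for reads, MACS2 2.2.7.1, BWA 0.7.17 and SAMtools 1.6, with build mm10. Settings, the use of inputs and any blacklist: not given in the sources used here. Both deposited lists have the column layout of IDR output; they hold the authors' IDR score, −log10 IDR and −log10 p per library, with no fold. Peak starts and summits are deposited positions, written 1-based.

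Genes were placed with a RefSeq table of GRCm38.p6 holding 49550 genes on the autosomes and X, and strands came from the RefSeq promoter table. An overlap of 1 bp with the other list made a peak shared. Named genes are the 10 described, nearer neighbours, and listed pathway genes with a site. Others were chosen after their values were seen. They are Nnmt, Adh1, Fmo2, Aox3, Dcxr, Akr1c18 and Cbr2 of the list. Also among them are the neighbours Nob1, Sgo2a, Gm52236, Dop1b, Usp22, Tnfrsf13b and Zbtb16, and Prdx1 among the sequences shown. The genes, lists and alternatives were chosen with earlier results of these data known. No test was run, since the choice of genes used the peaks and each genotype has 1 list. The assignment of peaks and the motif search were tested on simulated data. Values were computed with pandas 2.3.3 and numpy 2.4.6 in Python 3.11.15 and drawn with Matplotlib 3.10.9.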

Additional observations from a re-analysis of the deposited data

How the results depend on the processing

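The count of genes with a Keap1-null site (9) and of their sites (10) each became 2 with the gene span alone, Ephx1 and Esd, because the other summits lie outside the gene. They were 8 and 8 within 10 kb, without Abcc4 and the farther Abcc1 site, and 10 and 10 within 100 kb, which adds Cbr1. By the smaller −log10 p, 3 sites were among the first 100 Keap1-null peaks, and by the larger value of the pair 6 were. An IDR of at most 0.01, any base of the peak, the nearest protein-coding gene alone (8 genes), the other overlap rules and gene-end distances of 500 and 5000 bp (3 and 5 sites) moved no count by over 1.5 times, and Nrf2-null sites stayed at 0. The search for TGACTCA, found at 1 gene (Aox1), was added after seeing the data; TGACNNNGC was found at 1 gene (Abcc4, in 2 windows), as was TGACNNNGC or TGAGNNNGC. Motif searches in whole peaks or near summits were not run, since only promoter windows had sequence. No paired analysis was possible because a list gives joined peaks whose library columns carry no bench number; leaving out a library was not run for the same reason.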
